A study of Mus musculus with 8 samples.

Results

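The genes described here are 10 markers of mature adipocytes, chosen by symbol from the 22740 protein-coding genes of a count table of mouse skin. They fall into 4 secreted proteins (Adipoq, Lep, Retn and Cfd), 2 lipid droplet proteins (Plin1 and Cidec), 3 proteins that release or carry fatty acids (Lpl, Lipe and Fabp4) and 1 regulator of adipocyte identity (Pparg). All 10 were listed, and all 10 were among the 15163 genes that passed the filter on low counts and were tested.

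Dermal white adipocytes form a layer below the dermis, beside the hair follicles and above the thin muscle sheet of mouse skin. Mature adipocytes store triglyceride in a droplet coated by perilipin, take up fatty acids that lipoprotein lipase frees from circulating lipoproteins, release them again through hormone-sensitive lipase, and secrete adipokines such as adiponectin and leptin into the blood. The nuclear receptor PPARγ and C/EBP factors switch on many of these genes during adipocyte differentiation, and the layer is known to expand and shrink with the hair cycle.

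Whole skin was taken from BALB/c mice aged 6 to 8 weeks, in 4 groups of 2 mice each. Baseline CTL and baseline butyrate mice received no allergen, whereas lesional CTL and lesional butyrate mice were exposed on the skin to house dust mite (HDM) allergens, 4 times 15 µg over 2 weeks, to induce atopic dermatitis-like skin inflammation. Butyrate, a short-chain fatty acid made by gut bacteria, was given as sodium butyrate in drinking water at 400 mM, from 2 weeks before the allergen and until the end. CTL mice, labelled as vehicle, drank water without it. Per the paper, mice of its butyrate experiments were females on a low-fibre diet, from 2 weeks before the allergen and throughout. Mice for its baseline skin experiments were fed low-fibre diet as well. Allergen was applied on shaved skin under an occlusive patch. Per the labels, skin of the baseline mice was collected when butyrate treatment ended. The first number of the sample title is also the same as the state, baseline or lesional. The second number is the same as the treatment, CTL or butyrate. Allergen exposure therefore cannot be told apart from the first number or from any difference in shaving, patching or collection day. This holds for every comparison named here as with HDM. Likewise, butyrate cannot be told apart from the second number in any comparison named here as with butyrate. Each library is 1 piece of skin of 1 mouse, and in such bulk tissue fewer adipocytes and less RNA per adipocyte cannot be told apart.

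Libraries held between 18004136 and 21085544 counts. Levels are given as CPM, counts scaled to the size of each library after correction by trimmed mean of M values (TMM). The library of baseline butyrate replicate 3 stood apart from the other 7. Keratins and regulators of the growing hair follicle summed to 13510 CPM in that mouse and to between 28.7 and 41.8 CPM in the others. Its skeletal muscle genes summed to 12540 CPM, against 16920 to 58440 CPM elsewhere, and its keratinocyte genes to 9621 CPM, against 17450 to 24140 CPM elsewhere. Among 12328 tested genes with a mean of at least 5 CPM, 23.1% differed more than 2-fold between the mice of the baseline butyrate pair, compared with 0.665% to 3.32% in the other pairs. The summed adipocyte genes of that mouse, 2535 CPM, lay within the range of the other mice, 2046 to 3460 CPM. The main results that rest on this mouse are therefore given with and without it. Without it a lone baseline butyrate mouse remains. A gene is called at an adjusted p below 0.1 and a fold-change above 2. For HDM in butyrate-treated mice and butyrate in lesional skin, edgeR called a larger share of all genes without this mouse. For HDM in CTL mice that share is not reported here. Calls of listed genes without this mouse are therefore not read as results about their lists.

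**Figure D1:**
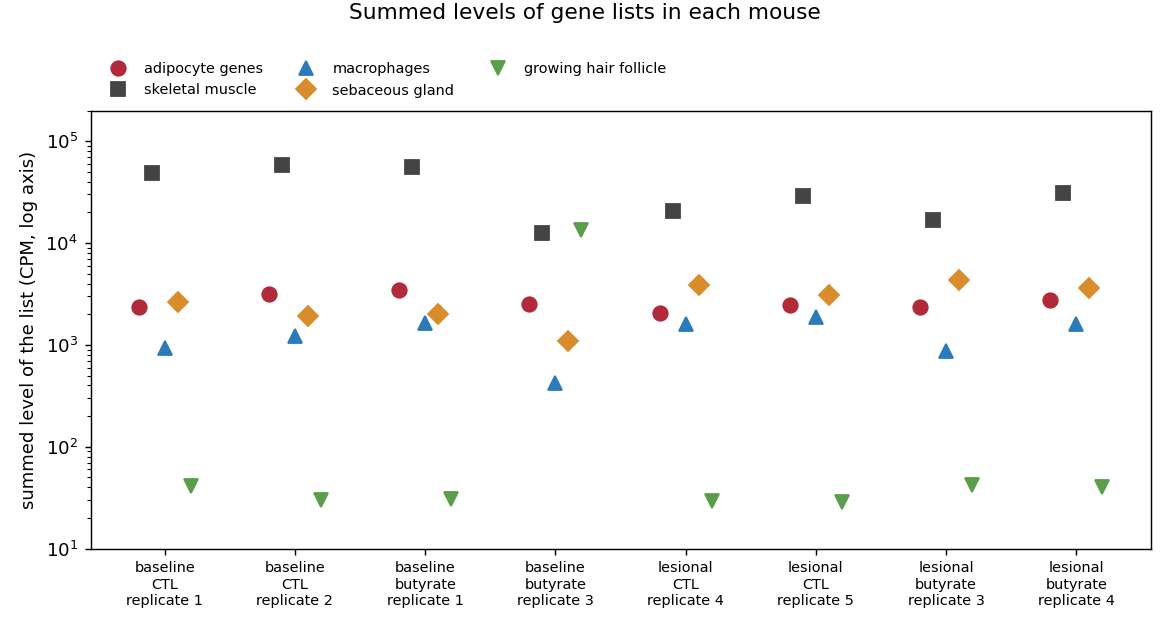
Summed level of 5 gene lists in each of the 8 mice (CPM, log axis); each point is 1 mouse. The hair follicle list is at 13510 CPM in baseline butyrate replicate 3 and at 28.7 to 41.8 CPM in the other mice, while the adipocyte genes stay between 2046 and 3460 CPM in all 8.

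The fat in these samples carried white adipocyte markers at high counts. The lowest member count in any library was 222 reads, for Lep, compared with a floor of 3 counts that corresponds to between 0.138 and 0.169 CPM. Ucp1, the uncoupling protein that defines brown fat, did not exceed 0.28 CPM in any mouse and was not tested. Other genes linked to brown and beige fat were detected, and the list of 7 with Ucp1 summed to between 74.1 and 167 CPM per mouse. Of these, Cox8b and Cox7a1, also found in muscle, had means of 86.1 and 46.7 CPM in baseline CTL mice. Per kilobase of the principal transcript, Fabp4 was the most abundant member with a mean of 920 CPM per kb, followed by Cfd (616), Lpl (156), Adipoq (105), Cidec (98.5), Retn (61.9), Lipe (29.9), Plin1 (22.3), Pparg (15.5) and Lep (10.5 CPM per kb). The ranges of the group means per kb overlapped between Fabp4 and Cfd, between Adipoq and Cidec, and between neighbours from Lipe down to Lep. With the length of all annotated exons instead, Cfd ranked first and Fabp4 second, Lpl moved from rank 3 to 5, and Lep and Pparg exchanged the last ranks.

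Promoter sequence is shown for the member that differed most between groups, Lep, and for Plin1, the member whose levels over the mice were most like those of the other 9. RefSeq windows (GRCm38.p6, 250 bases before to 50 after a start) were at hand for 8 of the 10 members, 12 windows in all, and for neither Fabp4 nor Lpl. The windows were searched on both strands for TTNNGCAA (a core of the C/EBP motif), AGGNCANAGGNCA (a direct repeat of the kind bound by PPARγ with RXR) and TATAAA. Capitals mark matches to TTNNGCAA, none of which overlapped a match to another motif. The Lep window lies on the plus strand at chr6:29059971-29060270 and the Plin1 window on the minus strand at chr7:79732727-79733026, each printed 5′ to 3′.
Lep: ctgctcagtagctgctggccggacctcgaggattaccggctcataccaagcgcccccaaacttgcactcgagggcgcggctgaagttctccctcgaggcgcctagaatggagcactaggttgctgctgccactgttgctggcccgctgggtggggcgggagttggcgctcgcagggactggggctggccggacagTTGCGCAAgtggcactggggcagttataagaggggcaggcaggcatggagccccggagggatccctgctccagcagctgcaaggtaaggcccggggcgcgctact
Plin1: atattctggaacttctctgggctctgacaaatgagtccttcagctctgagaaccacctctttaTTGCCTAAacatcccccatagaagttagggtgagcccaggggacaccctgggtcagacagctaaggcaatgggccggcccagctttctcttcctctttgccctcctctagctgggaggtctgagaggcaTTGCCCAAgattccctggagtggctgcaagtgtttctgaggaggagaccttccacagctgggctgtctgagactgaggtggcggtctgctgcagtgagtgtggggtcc
The Lep match begins 55 bases before the start and reads the same on both strands. Plin1 held a pair of matches, beginning 187 and 58 bases before its start. TTNNGCAA was found in 4 of the 12 member windows, of Lep, Plin1, Cidec and Pparg, and in 10.8% of all 32851 windows. The direct repeat was in 0 member windows and 0.381% of all, and TATAAA in 1 member window (Pparg) and 13.6% of all. These matches describe the letters of the windows and nothing more.

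Lep, which encodes leptin, the satiety hormone that fat secretes in proportion to its lipid stores, stood apart from the other members in the lesional butyrate mice. The gene lies on chromosome 6 at 29060220 to 29073877 on the plus strand (GRCm38). At baseline its level was 29.7 and 65.8 CPM in CTL mice and 44.1 and 51.5 CPM with butyrate. In lesional skin it was 28.5 and 33.2 CPM in CTL mice and 10.6 and 11.1 CPM with butyrate. Both lesional butyrate mice lay below the other 6, whose lowest value was 28.5 CPM, whereas the lesional CTL mice overlapped with baseline CTL.

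Between lesional butyrate mice (10.8 ± 0.337 CPM, SD, n = 2) and baseline butyrate mice (47.8 ± 5.17 CPM, SD, n = 2), the log2 fold change of Lep was −2.14 (SE 0.37, 95% interval −3.04 to −1.25), a 4.41-fold lower level. Its unadjusted p was 0.000993 and its adjusted p 0.138 by edgeR's quasi-likelihood test, so it missed the threshold of 0.1. Within lesional skin, the level was 2.85-fold lower with butyrate than in CTL mice (30.9 ± 3.34 CPM, SD, n = 2), a log2 fold change of −1.51 (SE 0.36, 95% interval −2.39 to −0.63). The unadjusted p of that comparison was 0.00543 and the adjusted p 0.737 by edgeR. In baseline skin the log2 fold change with butyrate was 0.00 (SE 0.35, 95% interval −0.85 to 0.85). Subtracting this baseline effect of butyrate from the lesional one gave −1.51 on the log2 scale (SE 0.50, unadjusted p = 0.0226, adjusted p = 0.840 by edgeR).

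Whether Lep passed the threshold depended on the fit. Over the fits run, its log2 fold change ranged from −2.24 to −2.02 with HDM in butyrate-treated mice and from −1.62 to −1.39 with butyrate in lesional skin. The difference of the butyrate effects depended more on single mice, at −1.05 without baseline CTL replicate 1, −2.19 without baseline CTL replicate 2 and −1.40 without the mouse with hair follicle genes. DESeq2 called it lower in lesional butyrate mice than in baseline butyrate mice (adjusted p = 1.35e-05, 4.6% of all genes called) and than in lesional CTL mice (adjusted p = 0.0269, 0.818% of all genes called). When edgeR was run on the 4 lesional mice alone, the effect of butyrate was −1.51 with an adjusted p of 0.0842 (0.168% of all genes called), and limma-voom on the same mice gave 0.132. Without the mouse with hair follicle genes, edgeR called the HDM effect in butyrate-treated mice at −2.02 (adjusted p = 0.0604, 5.94% of all genes called), but not the butyrate effect in lesional skin (adjusted p = 0.147, 1.22% of all genes called). Without baseline butyrate replicate 1, which leaves the mouse with hair follicle genes as the lone baseline butyrate sample, edgeR called the HDM effect at −2.24 (adjusted p = 0.0119, 19.1% of all genes called) and the difference of the butyrate effects at −1.61 (adjusted p = 0.0750, 20.9% of all genes called). A permutation test of 2 mice against 2 cannot go below an exact two-sided p of 0.333.

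The low Lep level was not matched by the other adipocyte genes of the same mice. Relative to Adipoq, which encodes adiponectin, Lep CPM amounted to 0.0724 and 0.0948 in the lesional butyrate mice and to between 0.236 and 0.408 in the other 6. As a percentage of the summed CPM of the other 9 members it was 0.453% and 0.402% in these mice, compared with 1.27% to 2.15% elsewhere. After centring each gene on its mean log2 CPM over the 8 mice, Lep was 1.39 and 1.38 log2 units below the median of the other 9 in the lesional butyrate mice, whereas in the other mice it was between 0.12 and 0.90 above it. That mean includes the 2 low values, which lifts the centred Lep values of the other 6 mice, so their being above 0 is not a separate result.

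**Figure D2:**
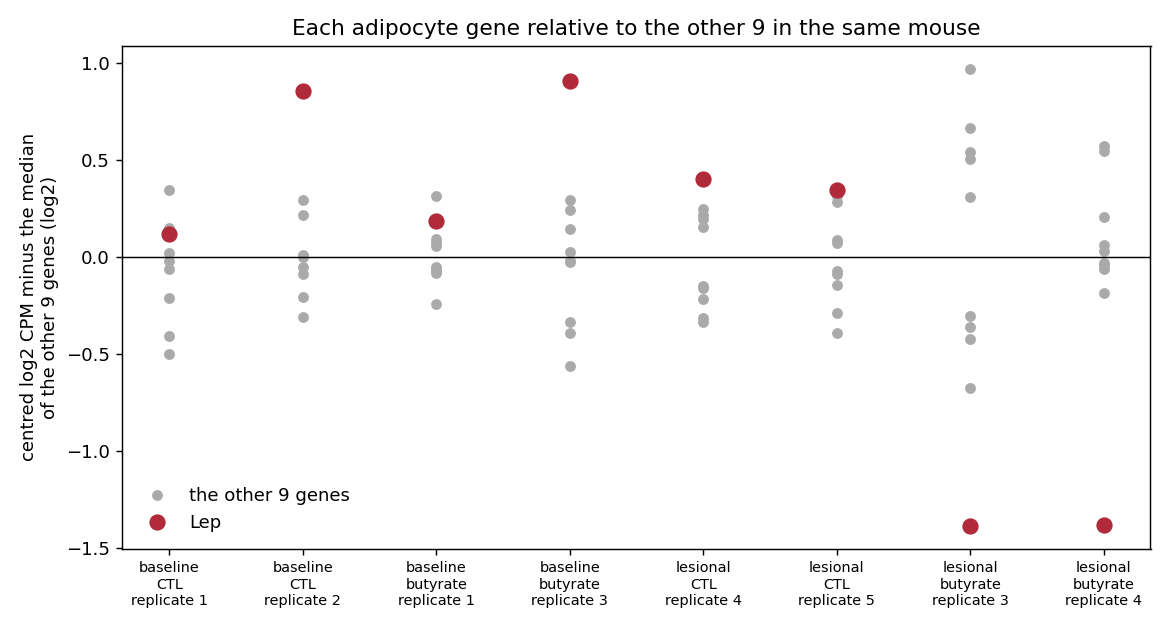
Level of each adipocyte gene in each mouse, as log2 CPM centred on the gene's mean over 8 mice minus the median of the other 9 genes in that mouse (log2). Lep (red) is at −1.39 and −1.38 in the 2 lesional butyrate mice and between 0.12 and 0.90 in the other 6, which the centring on a mean with the 2 low values lifts. Grey points are the other 9 genes.

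The other adipokines did not share this pattern. Adipoq, whose product sensitises liver and muscle to insulin, was at 126 and 162 CPM at baseline in CTL mice and 178 and 126 CPM with butyrate, and in lesional skin at 111 and 115 CPM in CTL mice and 146 and 117 CPM with butyrate. Cfd, which encodes complement factor D (adipsin), a protease of the alternative complement pathway, was at 391 and 547, 712 and 353, 360 and 594, and 818 and 771 CPM in that order (baseline CTL, baseline butyrate, lesional CTL, lesional butyrate). Its 2 lesional butyrate mice were above the other 6. Retn, which encodes resistin, was at 45.9 and 73.5, 94.1 and 49.6, 44.4 and 75.8, and 82.6 and 98.1 CPM. The lesional butyrate mice were above the lesional CTL mice for Adipoq, Cfd and Retn, but for Adipoq and Retn baseline butyrate replicate 1 was above at least 1 of them. The log2 fold change with butyrate in lesional skin was 0.74 for Cfd (SE 0.41, 95% interval −0.25 to 1.72), 0.59 for Retn (SE 0.41) and 0.23 for Adipoq (SE 0.22), and none passed the test.

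**Figure D3:**
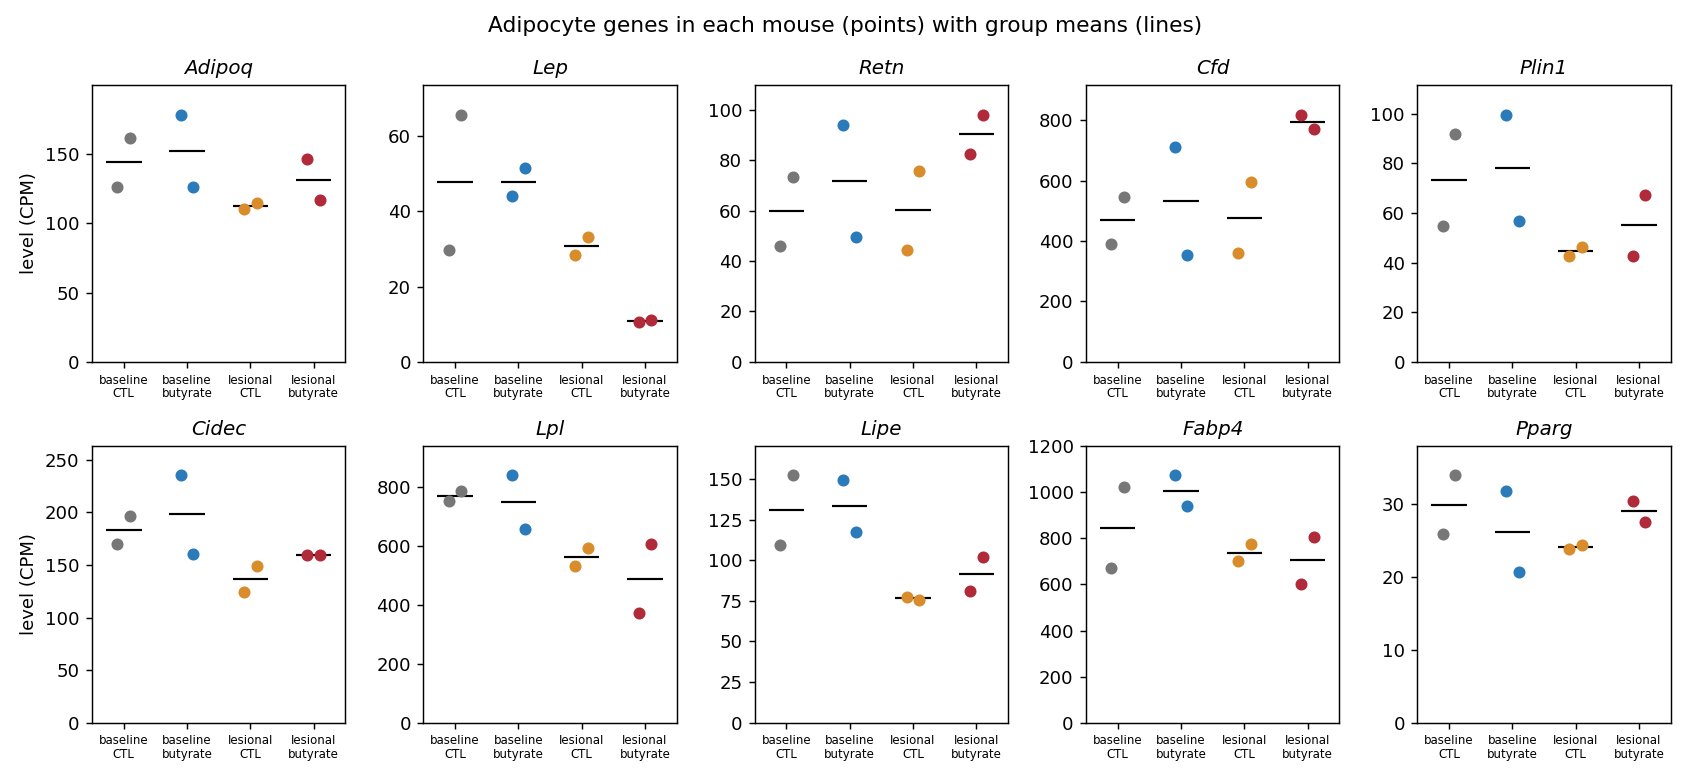
Level of the 10 adipocyte genes (CPM, axes from 0) in each of the 8 mice; points are mice and black lines the mean of the 2 mice of a group. Lep is at 10.6 and 11.1 CPM in lesional butyrate mice and at 28.5 CPM or more in the others, while Cfd is at 818 and 771 CPM there and at 712 CPM or less in the others.

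The droplet proteins and the lipases had lower group means in lesional than in baseline skin, with and without butyrate. Lipe, which encodes hormone-sensitive lipase, was at 110 and 152 CPM in CTL mice and 149 and 117 CPM with butyrate at baseline, and at 77.6 and 75.6 CPM and 80.9 and 102 CPM, respectively, in lesional skin. All 4 lesional mice were below all 4 baseline mice, as for 3 of the 10 members (Lipe, Lpl and Cidec) and 9.31% of all genes. In CTL mice the log2 fold change of Lipe with HDM was −0.77 (SE 0.22, 95% interval −1.31 to −0.24), with an unadjusted p of 0.0116 and an adjusted p of 0.143 by edgeR. In butyrate-treated mice it was −0.54 (SE 0.22, unadjusted p = 0.0464, adjusted p = 0.371 by edgeR), and −0.71 without the mouse with hair follicle genes (adjusted p = 0.110 by edgeR). In CTL mice the adjusted p of Lipe was 0.0421 by DESeq2, and by edgeR it was 0.0293 without the mouse with hair follicle genes, 0.0294 without baseline butyrate replicate 1 and 0.0174 on the 4 mice compared. In each of these fits the change was below the minimum of 2-fold that a call required. Lipe was not alone in this. Lpl, Cidec, Plin1 and Adipoq also had an adjusted p below 0.1 in some alternative fits of that comparison, and none was called. Lipe lies on the minus strand of chromosome 7 (25379527 to 25398710, GRCm38), and the annotation holds an overlapping gene, 4732471J01Rik, on the other strand.

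Plin1 encodes perilipin 1, which coats the lipid droplet and gates access of lipases. It was at 54.8 and 91.9 CPM in CTL mice and 99.6 and 56.7 CPM with butyrate at baseline, and at 42.5 and 46.5 CPM and 42.7 and 67.3 CPM, respectively, in lesional skin. The lesional CTL mice were below both baseline CTL mice, and the butyrate groups overlapped. Cidec, a droplet protein that helps droplets to fuse and grow, was at 170 and 197, 235 and 161, 124 and 149, and 160 and 159 CPM in the same order. Neither gene passed the test in any comparison.

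Lpl, the lipase that frees fatty acids from lipoproteins at the capillary wall, was at 753 and 786 CPM in CTL mice and 841 and 657 CPM with butyrate at baseline, and at 533 and 595 CPM and 374 and 606 CPM, respectively, in lesional skin. As for Lipe, all lesional mice were below all baseline mice. Fabp4, the cytosolic fatty acid carrier of adipocytes, was at 672 and 1023, 1074 and 942, 701 and 775, and 602 and 808 CPM. Pparg was at 26.0 and 34.0, 31.8 and 20.6, 23.9 and 24.4, and 30.5 and 27.6 CPM, a 1.65-fold range over all 8 mice. Its lowest value was that of the mouse with hair follicle genes. Lpl and Fabp4 are expressed outside adipocytes as well, in muscle and in capillary endothelium respectively.

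With HDM in CTL mice, the median log2 fold change of the 10 members was −0.39, compared with −0.02 over all tested genes. Of the members 8 had a log2 fold change below 0, and 6 (Adipoq, Cidec, Lipe, Lpl, Plin1 and Pparg) had both lesional mice below both baseline mice, as had 38.5% of all genes. No member passed an adjusted p below 0.1 with a fold-change above 2, compared with 3.58% of all genes by edgeR, and 1 member (Lipe) was at an unadjusted p below 0.05, as were 19.7% of all genes. limma-voom and DESeq2 also called 0 members, and 3.81% and 7.21% of all genes, respectively. All 10 members were higher in baseline CTL replicate 2 than in replicate 1, by a median of 1.39-fold. Without replicate 2 the median difference with HDM was −0.13, and without replicate 1 it was −0.51.

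In butyrate-treated mice, the median log2 fold change with HDM was −0.41, against −0.04 over all genes. Of the members 5 had non-overlapping lower levels, as had 16.9% of all genes, and Cfd had non-overlapping higher levels, as had 15.7% of all genes. Called by edgeR were 0 of 10 members and 0.35% of all genes, with 2 members (Lep and Lipe) and 13.1% of all genes at an unadjusted p below 0.05. limma-voom called 0 members and 0.277% of all genes, and DESeq2 called 1 member, Lep, and 4.6% of all genes. Without the mouse with hair follicle genes, the median was −0.58, 9 of 10 members were below 0 and Lep was called. Without baseline butyrate replicate 1 the median was −0.02, and edgeR called Cfd higher by 1.18 on the log2 scale (adjusted p = 0.0524) beside Lep. Both HDM comparisons have their own baseline mice, and the difference between them is the one given for butyrate.

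With butyrate in lesional skin, 7 members had a log2 fold change above 0 and the median was 0.24, against −0.01 over all genes. The groups did not overlap for 7 members, 6 higher (Adipoq, Cfd, Cidec, Lipe, Pparg and Retn) and Lep lower, while 44.9% of all genes had non-overlapping groups in this comparison, 22.4% higher and 22.5% lower. Called by edgeR were 0 of 10 members and 0% of all genes, at an unadjusted p below 0.05 were 1 member (Lep) and 4.84% of all genes, and limma-voom called 0 members and 0.0066% of all genes. DESeq2 called Lep, and 0.818% of all genes. In baseline skin the median with butyrate was 0.09, the groups of all 10 members overlapped although 29.7% of all genes had groups that did not, and 0 members and 0% of all genes were called. No member reached an unadjusted p below 0.05 there, compared with 3.49% of all genes, and DESeq2 and limma-voom called 0 members, with 0.383% and 0% of all genes. The baseline median was 0.33 without the mouse with hair follicle genes and −0.21 without the other baseline butyrate mouse, and it was 0.36 without baseline CTL replicate 2.

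The effect of butyrate differed between lesional and baseline skin by a median of 0.18 over the members, against −0.04 over all genes. edgeR called 0 members and 0% of all genes, with 1 member (Lep) and 4.64% of all genes at an unadjusted p below 0.05, and DESeq2 and limma-voom called 0 members, with 0.244% and 0% of all genes. This median was −0.11 without the mouse with hair follicle genes and −0.05 without baseline CTL replicate 2. It was 0.42 without baseline butyrate replicate 1, 0.38 without baseline CTL replicate 1 and 0.05 without lesional CTL replicate 4, and between 0.09 and 0.27 without each of the other mice.

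**Figure D4:**
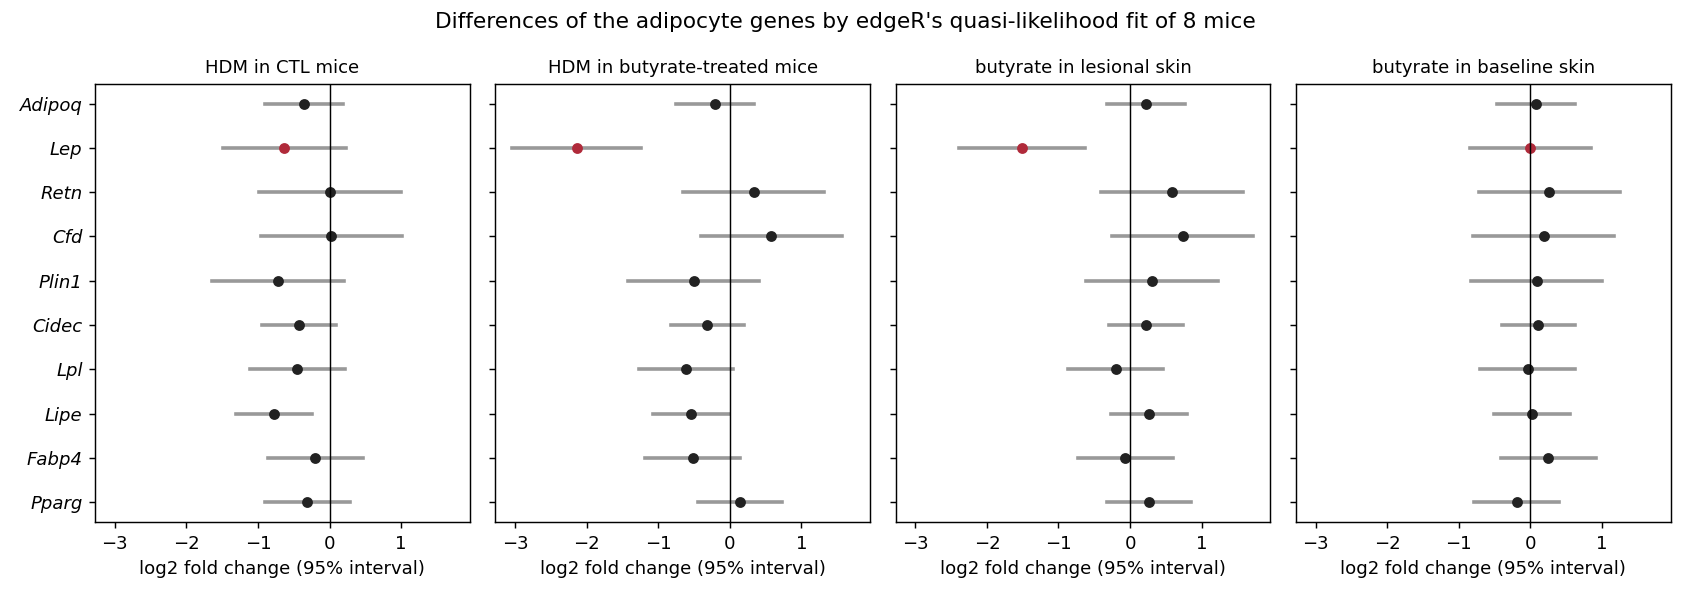
Log2 fold change of the 10 adipocyte genes with its 95% interval in 4 comparisons, by edgeR on all 8 mice; Lep is in red. The Lep interval lies below 0 with HDM in butyrate-treated mice (−3.04 to −1.25) and with butyrate in lesional skin (−2.39 to −0.63), and the Lipe interval with HDM in CTL mice (−1.31 to −0.24) and in butyrate-treated mice (−1.07 to −0.012).

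The levels of other cell types moved between the same groups. The 12 skeletal muscle genes summed to between 48610 and 58440 CPM at baseline in CTL mice and 12540 and 56120 CPM with butyrate, and in lesional skin to between 20560 and 29190 CPM in CTL mice and 16920 and 30730 CPM with butyrate, and all 12 were detected in every library. Of these genes 0 were called by edgeR on all 8 mice. Without the mouse with hair follicle genes, some were called lower with HDM in CTL mice and in butyrate-treated mice. The median log2 fold change of the 12 genes was then −1.11 and −1.40, respectively. The 9 listed macrophage genes summed to between 930 and 1237, 419 and 1649, 1621 and 1889, and 872 and 1593 CPM in these groups, again with all genes detected in every library. In lesional butyrate replicate 3 the macrophage, endothelial, muscle and fibroblast sums were each below those of replicate 4. So were Lpl, Fabp4, Plin1, Lipe and Retn. Adipoq, Cfd and Pparg went the other way and were higher in replicate 3, as were the sebaceous and keratinocyte sums. Cidec was at 160 and 159 CPM and Lep at 10.6 and 11.1 CPM in the pair. The part of these cell types in the adipocyte gene levels was not tested.

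How closely each member followed the rest was described by the correlation of its log2 CPM with the median of the other 9 over the 8 mice, which share the library scaling. Pearson's r was 0.93 for Plin1, 0.85 for Cidec, 0.84 for Lipe, 0.73 for Fabp4 and 0.71 for Adipoq. It was 0.60 for Lpl, 0.52 for Pparg, 0.36 for Lep, 0.35 for Retn and 0.16 for Cfd. Thus the droplet proteins and Lipe varied together from mouse to mouse, and Cfd, Retn and Lep did so least. Among 12318 other genes with a mean of at least 5 CPM, those most like the members' median included Gstt1 (r = 0.96), Ndufb11 (0.95), Rsph3a, Ndufs6, Ifit2, Enpep, Gbp6, Atg4a and Clcn2 (0.92).

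Receptors and partners of the members were measured in the same skin. Lepr, the leptin receptor, had a baseline level of 32.2 ± 4.43 CPM in CTL mice and 30.1 ± 2.27 CPM with butyrate, and reached 19.0 ± 3.23 CPM and 17.6 ± 4.21 CPM, respectively, in lesional skin (SD, n = 2 each). Its log2 fold change with HDM was −0.76 in CTL mice (SE 0.23, unadjusted p = 0.0151, adjusted p = 0.158 by edgeR) and −0.78 in butyrate-treated mice (SE 0.23, unadjusted p = 0.0139, adjusted p = 0.283 by edgeR). With butyrate in lesional skin it was −0.11 (SE 0.23), where Lep was at −1.51. Of the adiponectin receptors, Adipor1 was at 298 ± 9.02 and 213 ± 7.69 CPM and Adipor2 at 219 ± 1.22 and 177 ± 1.99 CPM in baseline and lesional CTL mice (SD, n = 2), and neither passed the test. Gpihbp1, which holds Lpl at the capillary wall, was at 18.4 ± 0.730 CPM in baseline CTL and 8.15 ± 0.172 CPM in lesional CTL mice (SD, n = 2), a log2 fold change of −1.18 with an adjusted p of 0.105 by edgeR.

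Of all genes, edgeR called 3.58% with HDM in CTL mice, 0.35% with HDM in butyrate-treated mice and 0% in the other comparisons. Among 12 tested adipogenic transcription factors, 1 was called lower with HDM in CTL mice and 0 in the other comparisons. The gene called was Klf15, a glucocorticoid-induced factor of fat and muscle, at 25.1 and 32.6 CPM in baseline CTL and 8.17 and 11.03 CPM in lesional CTL mice (log2 fold change −1.59, SE 0.28, adjusted p = 0.0532 by edgeR). Without the mouse with hair follicle genes 3 were called lower in that comparison (Klf15, Mlxipl and Ppara), and 1 with HDM in butyrate-treated mice (Mlxipl). Of 16 genes of fatty acid and glucose uptake and triglyceride synthesis, 1 was called lower in the same comparison, Pck1, which supplies glycerol 3-phosphate in fat. Pck1 was at 62.9 and 49.2 CPM in CTL mice and 75.0 and 57.0 CPM with butyrate at baseline, and at 20.1 and 7.80 CPM and 12.8 and 17.7 CPM, respectively, in lesional skin. Its log2 fold change with HDM was −2.01 in CTL mice (SE 0.45, adjusted p = 0.0917 by edgeR) and −2.11 in butyrate-treated mice (SE 0.46, adjusted p = 0.191 by edgeR). All 4 lesional mice were below all 4 baseline mice, as for 9.31% of all genes. Without the mouse with hair follicle genes Pck1 was called lower with HDM in both, and Gpihbp1 and Slc2a4, the insulin-regulated glucose transporter, in CTL mice.

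Of 17 other genes of the lipid droplet and lipolysis, 0 were called by edgeR in any comparison. For HDM in CTL mice 19.7% of all genes, and 5 of these 17, were at an unadjusted p below 0.05 by edgeR. The most abundant were Mgll, which encodes monoglyceride lipase, at 227 to 667 CPM, and the droplet protein Plin2 at 131 to 251 CPM, each lowest in the mouse with hair follicle genes. Without that mouse, the genes called lower with HDM in CTL mice included Aqp7, the channel through which glycerol leaves the cell, and Acvr1c, and the genes called with HDM in butyrate-treated mice included Plin4, Fitm1 and Hilpda. The 8 genes of de novo lipogenesis, which build fatty acids from acetyl-CoA, were also called in no comparison by edgeR. For butyrate in lesional skin 4.84% of all genes, and 2 of these 8, were at an unadjusted p below 0.05 by edgeR. In that comparison all 8 were above 0 with a median of 0.66, and with HDM in CTL mice all 8 were below 0 with a median of −0.45, and both comparisons share the lesional CTL mice. With HDM in butyrate-treated mice all 8 were above 0 with a median of 0.33, and with butyrate in baseline skin all 8 were below 0 with a median of −0.30. Without the mouse with hair follicle genes, 4 of 8 were above 0 in the former (median 0.02) and 5 of 8 in the latter (median 0.03). Fasn, the fatty acid synthase, was at 631 and 1360, 1054 and 617, 597 and 878, and 959 and 1338 CPM in the 4 groups in the order above, and Scd1 ranged from 3569 to 7343 CPM. The sebaceous gland shares this pathway, and its own 12 tested markers summed to between 1086 and 4301 CPM per mouse. Without the mouse with hair follicle genes, Elovl6 was called higher with butyrate in lesional skin.

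Of 13 other adipokines and adipokine receptors, 2 were called higher with HDM in CTL mice, where 3.58% of all genes were called. In the other comparisons 0 were called, against 0.35% of all genes with HDM in butyrate-treated mice and 0% in the rest. Retnlg, a resistin-like gene known from neutrophils, was at 0.167 and 0.0555 CPM in baseline CTL and 5.60 and 12.6 CPM in lesional CTL mice, and at 1.00 and 0.791 CPM in lesional butyrate mice. Its baseline CTL values are at or below the floor of 3 counts, and its adjusted p was 0.0263 by edgeR. Aplnr, the receptor of apelin, which endothelium expresses, was at 14.5 and 15.5 CPM in baseline CTL and 45.3 and 33.4 CPM in lesional CTL mice (adjusted p = 0.0995 by edgeR). Rarres2, which encodes the adipokine chemerin, was also called higher with HDM in CTL mice when the mouse with hair follicle genes was left out, and Retnlg was then called lower with butyrate in lesional skin. Retn itself had a log2 fold change of 0.01 with HDM in CTL mice (SE 0.41) and of 0.59 with butyrate in lesional skin (SE 0.41).

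Of 6 tested genes linked to brown and beige fat, Dio2 was called higher with HDM in CTL mice (5.61 and 5.22 to 17.9 and 19.2 CPM, adjusted p = 0.0307 by edgeR) and in butyrate-treated mice (7.10 and 6.72 to 27.6 and 19.6 CPM, adjusted p = 0.0709 by edgeR). Of all genes, 3.58% were called with HDM in CTL mice and 0.35% in butyrate-treated mice. Dio2 encodes the deiodinase that activates thyroid hormone. Ppargc1a, a coactivator of mitochondrial genes that muscle expresses as well, was called lower with HDM in CTL mice, from 27.2 and 20.1 to 7.69 and 7.34 CPM (adjusted p = 0.0676 by edgeR). When the mouse with hair follicle genes was left out, Cox7a1 was also called lower with HDM in CTL mice, and Cox7a1 and Cox8b in butyrate-treated mice, both encoding subunits of cytochrome c oxidase found in muscle and brown fat. The lower levels of Ppargc1a and Cox7a1 with HDM in CTL mice stood beside a lower muscle sum. That sum was lower in both lesional CTL mice than in both baseline CTL mice, whereas Dio2 was higher there. The part of muscle in the calls of this list was not tested.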

How the data were processed

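RNA of whole skin from 8 mice in 4 groups was sequenced with an Illumina TruSeq RNA kit. The authors aligned reads to GRCm38 with STAR 2.5.2 and deposited raw counts per protein-coding gene from featureCounts; strand marking by the kit is not given in the sources used here. The series' design text counts 16 samples, of which 8 are analysed here. Group labels came from the sample labels, and every column matched 1 sample. From the counts, genes were kept by filterByExpr (minimum count 10), libraries scaled by TMM, and all 8 mice fitted with 1 mean per group in edgeR 4.0.16 (R 4.3.3), robust quasi-likelihood, prior count 0.125. A call required a Benjamini-Hochberg adjusted p below 0.1 and a fold-change above 2. Alternatives were limma 3.58.1 (voom), DESeq2 1.42.0, other scalings, filters, thresholds and leaving out each mouse. Scripts were tested on simulated data. The members and lists were chosen with earlier results of these data known. Named were all members, called genes of the other lists (at most 6 a list, otherwise the 2 of highest mean CPM), 4 receptors and partners (Adipor1, Adipor2, Lepr and Gpihbp1), and the 10 genes most like the members; some items under these rules are not reported here. Ucp1, and the genes named because they were called without 1 mouse, were named after their values were seen. Lists of fibroblast, sebaceous, muscle, macrophage, endothelial, hair follicle and keratinocyte genes served as markers of other cells. Positions and lengths came from GENCODE vM21 (GRCm38). In the main fit, p-values test differences of group means against the spread between mice of a group. That spread was estimated over all 4 groups of 2 mice and moderated across genes. The wide baseline butyrate pair therefore also enters comparisons that do not use it. Intervals rest on the same fitted spread.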

Additional observations from a re-analysis of the deposited data

How the results depend on the processing

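No paired analysis was possible because no 2 groups compared had more than 1 replicate number in common. Of 1126 values recomputed under other settings, 1029 kept their direction and their side of the threshold or moved by less than the spread between mice. The median log2 fold changes of the members and the calls of Lep are given with the mice they depend on in the report. The number of members called was 0 in each of the 5 comparisons by edgeR on all 8 mice, and with limma-voom, other scalings, no filter, a prior count of 2, an adjusted p below 0.05 and no fold minimum it was also 0. For HDM in butyrate-treated mice it was 1 with DESeq2, and between 0 and 2 when 1 mouse was left out. For butyrate in lesional skin it was 1 with DESeq2, 1 when the 4 mice compared were fitted alone, and between 0 and 1 when 1 mouse was left out. For the difference of the butyrate effects it was between 0 and 1 when 1 mouse was left out. Every such call was of Lep, apart from Cfd for HDM in butyrate-treated mice without baseline butyrate replicate 1.

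Without leaving out a mouse, the sign of 3 members turned. Cfd with HDM in CTL mice was −0.0090 by limma-voom and −0.0013 by limma-voom on the 4 mice compared, which was chosen after seeing the data, Lep with butyrate in baseline skin was −0.0084 with upper-quartile scaling, and Lpl in that comparison was 0.026 with library size alone. Leaving out each mouse in turn turned the sign of the log2 fold changes below, given from lowest to highest over edgeR fits and over limma-voom and DESeq2 fits without baseline butyrate replicate 3, both added after seeing the data. The range for HDM in CTL mice was −0.43 to 0.39 for Retn, −0.38 to 0.34 for Cfd, −1.09 to 0.055 for Lep and −0.47 to 0.14 for Fabp4. The range for HDM in butyrate-treated mice was −0.45 to 0.066 for Adipoq, −0.063 to 0.87 for Retn and −0.13 to 0.50 for Pparg. The range for butyrate in lesional skin was −0.29 to 0.13 for Fabp4, −0.59 to 0.10 for Lpl and −0.059 to 0.60 for Plin1. The range for butyrate in baseline skin was −0.19 to 0.32 for Adipoq, −0.46 to 0.68 for Lep, −0.27 to 0.70 for Retn, −0.41 to 0.62 for Cfd, −0.38 to 0.51 for Plin1, −0.19 to 0.28 for Lipe, −0.022 to 0.58 for Fabp4, −0.54 to 0.099 for Pparg, −0.19 to 0.36 for Cidec and −0.23 to 0.13 for Lpl. The range for the difference of the butyrate effects was −0.10 to 0.42 for Adipoq, −0.072 to 0.86 for Retn, −0.22 to 0.68 for Plin1, −0.021 to 0.45 for Lipe, −0.55 to 0.14 for Lpl and −0.14 to 0.42 for Cidec. None of these values was called in a fit in which its sign had turned. The cause of these turns was not tested.

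Depth was not the limit for the members, whose lowest count was 222, but 2 mice of a group differed by up to 2.21-fold for a member. A group that loses 1 mouse is assumed to vary like the others.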

Other observations

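The marker lists of other cells had these calls by edgeR on all 8 mice. Of all genes, that fit called 3.58% with HDM in CTL mice and 0.35% with HDM in butyrate-treated mice. The keratinocyte list held 3 genes called higher with HDM in CTL mice, the keratins Krt16, Krt6a and Krt6b of activated epidermis. Krt16 was at 41.5 and 45.9 CPM in baseline CTL mice, 66.2 and 44.6 CPM in baseline butyrate mice, 1702 and 1148 CPM in lesional CTL mice, and 922 and 674 CPM in lesional butyrate mice, and it was also called with HDM in butyrate-treated mice. Krt79, which marks the sebaceous duct, was at 797 and 644 CPM in baseline CTL mice and 2405 and 1840 CPM in lesional CTL mice (adjusted p = 0.0891 by edgeR). Neither gene was called with butyrate in lesional or baseline skin. Without baseline butyrate replicate 3, edgeR called 4 keratinocyte genes higher and 1 lower with butyrate in lesional skin (Krt1, Krt10, Krt15, Krt6b and Lor).

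No gene of the fibroblast, muscle, macrophage, endothelial and hair follicle lists was called by edgeR on all 8 mice, but some were without baseline butyrate replicate 3. Beside the muscle calls given above, these were 2 macrophage genes called higher with HDM in CTL mice (Cd163 and Mrc1), 2 hair follicle genes called higher and 2 lower in that comparison (Krt27, Krt31, Krt86 and Lef1), and Krt73 called higher with HDM in butyrate-treated mice. In the same fit the sebaceous list had 3 genes called higher and 1 lower with HDM in CTL mice, 4 higher with HDM in butyrate-treated mice and 1 higher with butyrate in lesional skin. The keratinocyte list had 3 higher and 5 lower with HDM in CTL mice and 3 higher in butyrate-treated mice. Their most abundant genes were Col1a2 (726 to 1904 CPM) and Col1a1 (580 to 1611 CPM), Acta1 (2674 to 13750 CPM) and Myh4 (2505 to 12260 CPM), Lyz2 (135 to 565 CPM) and Mrc1 (53.6 to 387 CPM), and Pecam1 (41.5 to 135 CPM) and Cdh5 (25.9 to 67.3 CPM). Krt71 and Krt25 of the hair follicle list were at 3882 and 3027 CPM in baseline butyrate replicate 3 and at no more than 1.61 CPM in any other mouse.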
